A study of Mus musculus with 24 samples.

Results

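The 40 genes described here are type I interferon-stimulated genes, which cells switch on when they sense interferon-α or interferon-β. They were found by their symbols in the count table, where each symbol matched 1 gene, and they make up 40 of the 55421 genes counted. All 40 were among the 16593 genes that passed edgeR's filter on low counts, and all 40 also reached the minimum of that filter, 0.174 CPM (counts for each 1000000 counts of a library), in at least 6 of the 12 unstimulated libraries. The genes were chosen by their genotype difference, because in earlier results of these same data it had one sign without stimulation and the other after LPS. Every genotype difference and every interaction of the 40 genes is therefore given as a description, without a test, while their response to LPS within each genotype was tested.

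Gene expression was measured by RNA sequencing of bone marrow-derived macrophages (BMDMs) in 4 groups of 6 libraries. WT BMDMs came from C57/B6/J mice, and AhR-deficient BMDMs came from mice of the germline knockout strain B6.129-Ahr tm1Bra/J, so AhR, a transcription factor that responds to aryl hydrocarbons and tryptophan metabolites, was missing from all their cells. Marrow of both genotypes was grown with 10 ng/ml GM-CSF and 2 ng/ml TGF-β, which gives macrophages that resemble those of the lung alveoli. On day 6 the cultures of 2 groups, 1 of each genotype, received 97 EU/ml LPS for 24 h, and those of the other groups did not. The treatment protocol, which is given for every library, ends with 10 min of 5 µM of the Ca2+ ionophore A23187. The study's methods describe mice of both sexes, matched for age and sex. Almost no counts of the Y-linked gene Ddx3y were found in WT unstimulated replicate 34 and WT LPS-stimulated replicate 38 and in no AhR-deficient library, so these libraries were not balanced between genotypes in that respect. Since the knockout is germline, an effect of AhR in the cultured macrophages and an effect on the marrow they grew from cannot be told apart. Genotype and strain cannot be told apart either, since the WT and the knockout mice were of different strains.

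LPS binds Toll-like receptor 4, and the TRIF arm of that receptor turns on the gene of interferon-β. Secreted interferon-β acts back on the type I receptor, whose kinases activate a factor, with STAT2 and IRF9 among its subunits, that binds the interferon-stimulated response element in the promoters of these genes. Without infection or LPS a low, tonic interferon signal keeps many of them at a small but measurable level in macrophages.

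The promoters were searched for the letters of that element. RefSeq promoters (GRCm38.p6, 250 bases before and 50 after the start of transcription) were matched by symbol to 29 of the 40 genes, which have 34 promoters in that table. Rtp4, Mx2, Parp9, Parp14, Ifi204, Mx1, Ifi27l2a, Dhx58, Zbp1, Usp18 and Oas2 were not matched. Isg15 and Rsad2 are printed in full up to the start because both had large LPS responses. The promoter of Rsad2 also carries the core of the AhR response element, as do those of Stat2 and Bst2 among the genes shown after them. In the 2 sequences below, read 5′ to 3′ on the strand of the gene, capitals mark the core of the interferon-stimulated response element, which is GAAA, any 2 bases, GAAA, in either orientation, and in Rsad2 also GCGTG.
Isg15 (chr4:156200819-156201068, minus strand): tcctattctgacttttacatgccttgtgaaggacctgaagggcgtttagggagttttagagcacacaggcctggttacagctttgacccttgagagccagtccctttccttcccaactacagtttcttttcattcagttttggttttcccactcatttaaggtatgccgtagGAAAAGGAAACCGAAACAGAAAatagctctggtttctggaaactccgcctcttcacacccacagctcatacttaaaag
Rsad2 (chr12:26456453-26456702, minus strand): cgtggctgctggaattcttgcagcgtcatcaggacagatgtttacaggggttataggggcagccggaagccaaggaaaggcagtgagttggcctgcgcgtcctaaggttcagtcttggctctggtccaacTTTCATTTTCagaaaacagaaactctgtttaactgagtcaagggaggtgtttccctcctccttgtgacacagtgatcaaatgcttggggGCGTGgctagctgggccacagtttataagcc

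In Isg15 the core occurred in 3 overlapping copies that begin 78, 72 and 66 bases before the start. In Rsad2 it stood once, in reverse orientation from 120 bases before the start, with GCGTG from 31 bases before it. The other 9 genes with a core wholly before the start are shown by the 60 bases around it, with capitals for the interferon-stimulated core alone, so that the spacing of the copies can be compared within families.
Stat2 (chr10:128270251-128270310, plus strand): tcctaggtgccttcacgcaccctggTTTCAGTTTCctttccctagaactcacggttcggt
Ifi205 (chr1:174031855-174031914, minus strand): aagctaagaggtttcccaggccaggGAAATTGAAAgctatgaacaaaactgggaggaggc
Ifit1 (chr19:34640769-34640828, plus strand): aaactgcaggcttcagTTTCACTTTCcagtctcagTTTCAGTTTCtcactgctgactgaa
Ifit3 (chr19:34583365-34583424, plus strand): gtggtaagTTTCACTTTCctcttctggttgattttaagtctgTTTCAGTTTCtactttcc
Ifit3b (chr19:34607761-34607820, plus strand): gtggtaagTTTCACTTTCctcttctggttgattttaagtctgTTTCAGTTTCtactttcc
Oas1a (chr5:120907526-120907585, minus strand): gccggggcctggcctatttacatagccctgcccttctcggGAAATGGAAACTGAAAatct
Oas3 (chr5:120777700-120777759, minus strand): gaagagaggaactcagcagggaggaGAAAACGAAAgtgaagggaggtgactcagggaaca
Bst2 (chr8:71537565-71537624, minus strand): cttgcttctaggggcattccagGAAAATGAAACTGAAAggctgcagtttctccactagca
Trim30a (chr7:104465195-104465254, minus strand): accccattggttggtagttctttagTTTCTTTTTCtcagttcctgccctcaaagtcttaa

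The windows of Ifit3 and Ifit3b differed at 0 bases, and both held a pair of cores in reverse orientation. Over the whole 300 bases, the core was found in 15 of the 34 promoters of the 40 genes (44.1%) and in 3.44% of all 32851 promoters. The gamma-activated site, TTCNNNGAA, which reads the same on both strands, was found in 7 of 34 (20.6%) and in 8.30% of all. The core of the AhR response element, GCGTG on either strand, was found in 10 of 34 (29.4%) and in 32.4% of all. The interferon-stimulated core was not found in these windows of, among others, Irf7, Cmpk2, Oasl1 and Xaf1. These matches describe letters in a window, and binding was not measured here.

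Depth was between 45106052 and 76992663 counts per library, and CPM values are scaled by edgeR's TMM factors. Ahr itself does not check the genotype, because counts cover all exons and the labels do not give the part that is missing. It had 9.60 to 43.1 CPM in unstimulated WT, 4.74 to 10.96 in unstimulated AhR-deficient, 6.58 to 27.9 in LPS-stimulated WT and 21.5 to 63.8 in LPS-stimulated AhR-deficient BMDMs. Ahrr, a target gene of AhR, was at 13.3 CPM or more in every WT library and at 1.05 CPM or less in every AhR-deficient library. Macrophage markers were abundant in every group, with a summed level of 12 markers between 16200 and 41370 CPM and none at 0. The libraries are numbered 17 to 40 and form 3 runs of 8 consecutive numbers with 2 libraries of each group in every run, and the labels do not call these runs batches. Within groups, libraries also differed by how strongly their CPM rose with gene length. The slope, both as log2, ran from 0.095 (replicate 19) to 0.529 (replicate 28) in unstimulated AhR-deficient BMDMs. In LPS-stimulated WT BMDMs it ran from 0.199 (replicate 37) to 0.585 (replicate 30). Over all tested genes, the first principal component of the differences from group means held 73.6% of their variance. The labels do not say whether stimulated and unstimulated cultures came from the same animals.

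One library has to be set apart before the results. In unstimulated AhR-deficient BMDMs, replicate 27 had the highest value of its group of 6 for 39 of the 40 genes. Over all tested genes the same library was highest in 12.8%, and among the other genes that LPS raised in AhR-deficient BMDMs in 25.4%. The summed level of the 40 genes was 2883 CPM in replicate 27 against 997 to 1657 CPM in the other 5 libraries of its group. Genotype differences of the 40 genes without stimulation are therefore followed by the value without it, marked “less 27”. Replicate 27 was singled out on the values of these same genes, so the values without it are a description too.

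LPS raised nearly all of the 40 genes in both genotypes. A gene is said to have risen or fallen where its adjusted p was 0.05 or less and it changed 2-fold or more. By that rule 39 of 40 rose in WT BMDMs and 39 of 40 rose in AhR-deficient BMDMs, and all 40 fitted changes were above 0 in both. Over all tested genes, 13.2% rose in WT and 15.1% rose in AhR-deficient BMDMs. The exception in both genotypes was Eif2ak2, which encodes the double-stranded RNA-activated kinase PKR. The median log2 fold change of the 40 genes was 3.08 in WT and 4.25 in AhR-deficient BMDMs, and the medians of all tested genes were 0.03 and −0.03. Less 27, the median of the 40 genes in AhR-deficient BMDMs was 4.66. Every LPS-stimulated library lay above every unstimulated library for 29 of the 40 genes in WT (11.4% of all tested genes) and for 34 of 40 in AhR-deficient BMDMs (14.4% of all tested genes). Summed over the 40 genes, the level was 1736 to 2341 CPM in unstimulated WT, 997 to 2883 in unstimulated AhR-deficient, 11216 to 14861 in LPS-stimulated WT and 22256 to 29230 CPM in LPS-stimulated AhR-deficient BMDMs. In bulk RNA, fewer cells that express a gene and less RNA of it per cell cannot be told apart. All adjusted p-values are from edgeR's quasi-likelihood test with Benjamini-Hochberg adjustment over all tested genes, and n is 6 libraries per group throughout. The 2 LPS responses differ by the interaction, so their difference is no separate result. The LPS test in AhR-deficient BMDMs is therefore not free of the choice of genes, which was made on the genotype differences.

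**Figure D1:**
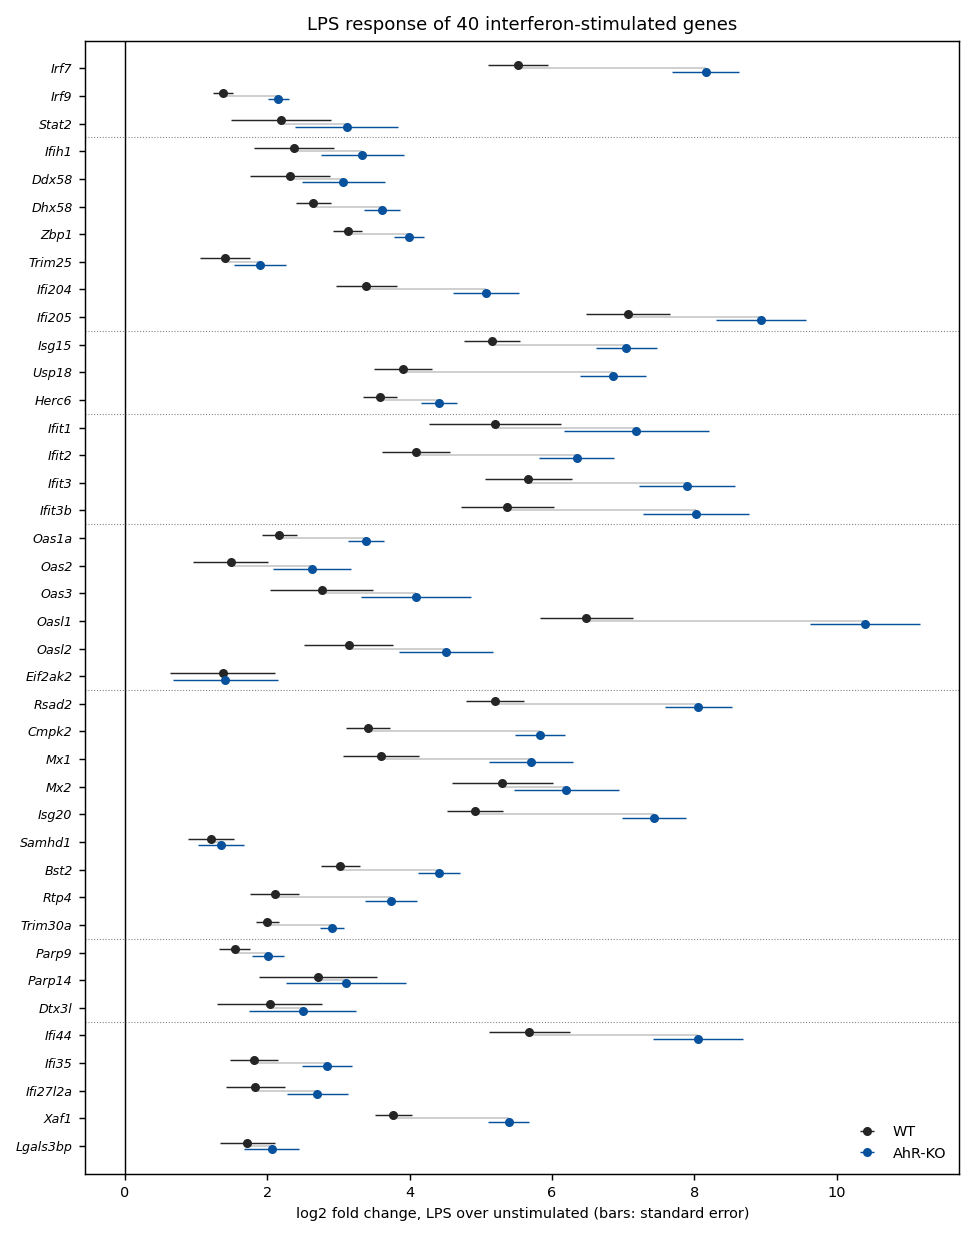
Log2 fold change of LPS over unstimulated for each of the 40 genes (horizontal axis; bars are standard errors), in WT (black) and AhR-deficient BMDMs (blue), grouped by role with dotted lines. Every value lies to the right of 0, with medians of 3.08 in WT and 4.25 in AhR-deficient BMDMs, and Oasl1 reaches 10.39.

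The genotype difference had opposite signs in the 2 states for most of the genes. Without stimulation, 34 of the 40 had a lower fitted level in AhR-deficient BMDMs (39 less 27), and after LPS 39 of 40 had a higher one. The sign pattern of lower without stimulation and higher after LPS was present in 33 of 40 and in 18.4% of all tested genes. The median log2 fold change of AhR-deficient over WT was −0.58 without stimulation, −0.78 without replicate 27, and 0.69 after LPS. The medians of all tested genes were −0.01, −0.01 and −0.05. The interaction, which is the LPS response of AhR-deficient minus that of WT BMDMs on the log2 scale, was above 0 in 40 of 40 genes with a median of 1.27, or 1.72 without replicate 27. Because the genes were selected on these contrasts, these counts repeat the choice of genes.

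The number of the 40 genes past the thresholds used for all genes is given in the same way, as a description of the size of these differences and not as a test, since the genes were selected on them. Lower without stimulation in AhR-deficient BMDMs by those thresholds were 5 (3.57% of all tested genes), or 14 less 27 (3.66% of all genes tested in that fit). Higher after LPS were 9 (2.17% of all tested genes), and past the threshold for the interaction were 15 (4.30% of all tested genes), or 24 less 27 (4.05%). With the slope of each library on gene length as a covariate, 9 were lower without stimulation (5.01% of all tested genes), 16 were higher after LPS (4.19%) and 35 were past the threshold for the interaction (16.8%). After LPS, 14 were higher by limma-voom (2.76%) and 4 with total library size (1.42%). The shares of all tested genes are for scale, and nothing is read from them for genes selected on the same values. Without stimulation 0 of 40 had all 6 AhR-deficient libraries below all 6 WT libraries (3.44% of all tested genes). Without replicate 27 there were 12 (4.0% of all tested genes), namely Rsad2, Cmpk2, Irf7, Irf9, Isg15, Oas1a, Oas2, Usp18, Ifi44, Trim30a, Xaf1 and Rtp4. Leaving out the library that was high in these same genes favours such separation, so the 12 are a description. After LPS all 6 AhR-deficient libraries lay above all 6 WT libraries for 13 of 40 (2.59% of all tested genes). Both genotype comparisons share the libraries of the LPS comparisons, so the 4 sets of values are not independent of each other.

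**Figure D2:**
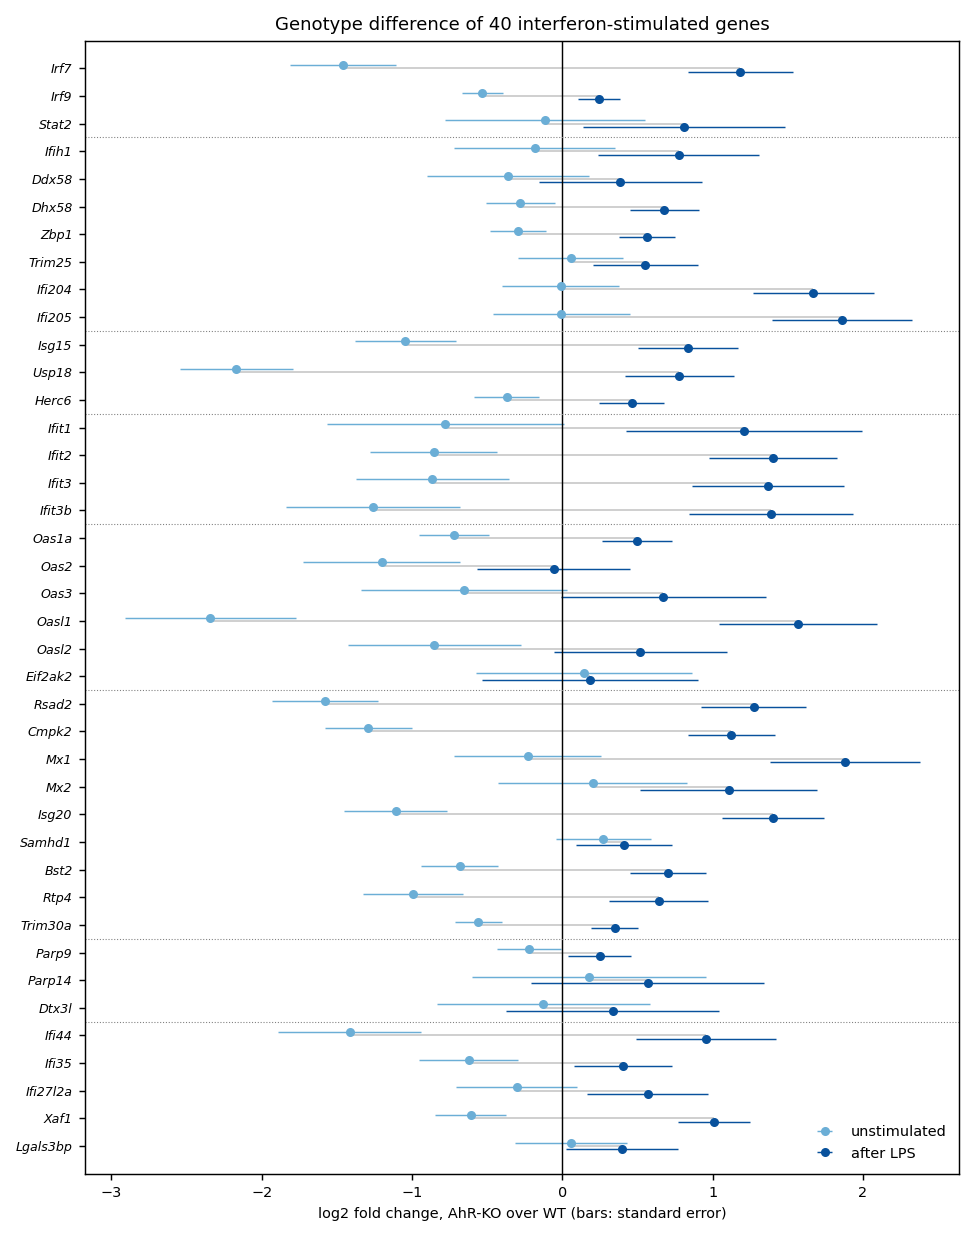
Log2 fold change of AhR-deficient over WT BMDMs for each of the 40 genes (horizontal axis; bars are standard errors), unstimulated (light blue) and after LPS (dark blue), grouped by role with dotted lines. Most light points lie left of 0 (34 of 40), with Oasl1 and Usp18 farthest left, and most dark points lie right of it (39 of 40), with Mx1 farthest right.

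The 3 runs of library numbers did not give the same picture without stimulation. The mean of log2(CPM + 0.5) was lower in AhR-deficient BMDMs for 40 of 40 genes in the run of replicates 17 to 24, for 25 in the run of 25 to 32, which holds replicate 27, and for 28 in the run of 33 to 40. The medians of these differences were −1.30, −0.08 and −0.68. In the run of 25 to 32, the mean of log2(CPM + 0.5) over the 40 genes was 4.93 in replicate 27 and 3.86 in replicate 28. It was 4.43 and 4.67 in the unstimulated WT replicates 25 and 26, so the values of this run depend on replicate 27. The sign was negative in all 3 runs for 20 genes. After LPS it was positive in all 3 runs for 39 of 40 genes, with medians of 0.69, 0.75 and 0.79. Shares of all tested genes are not given by run, so these counts are a description.

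**Figure D3:**
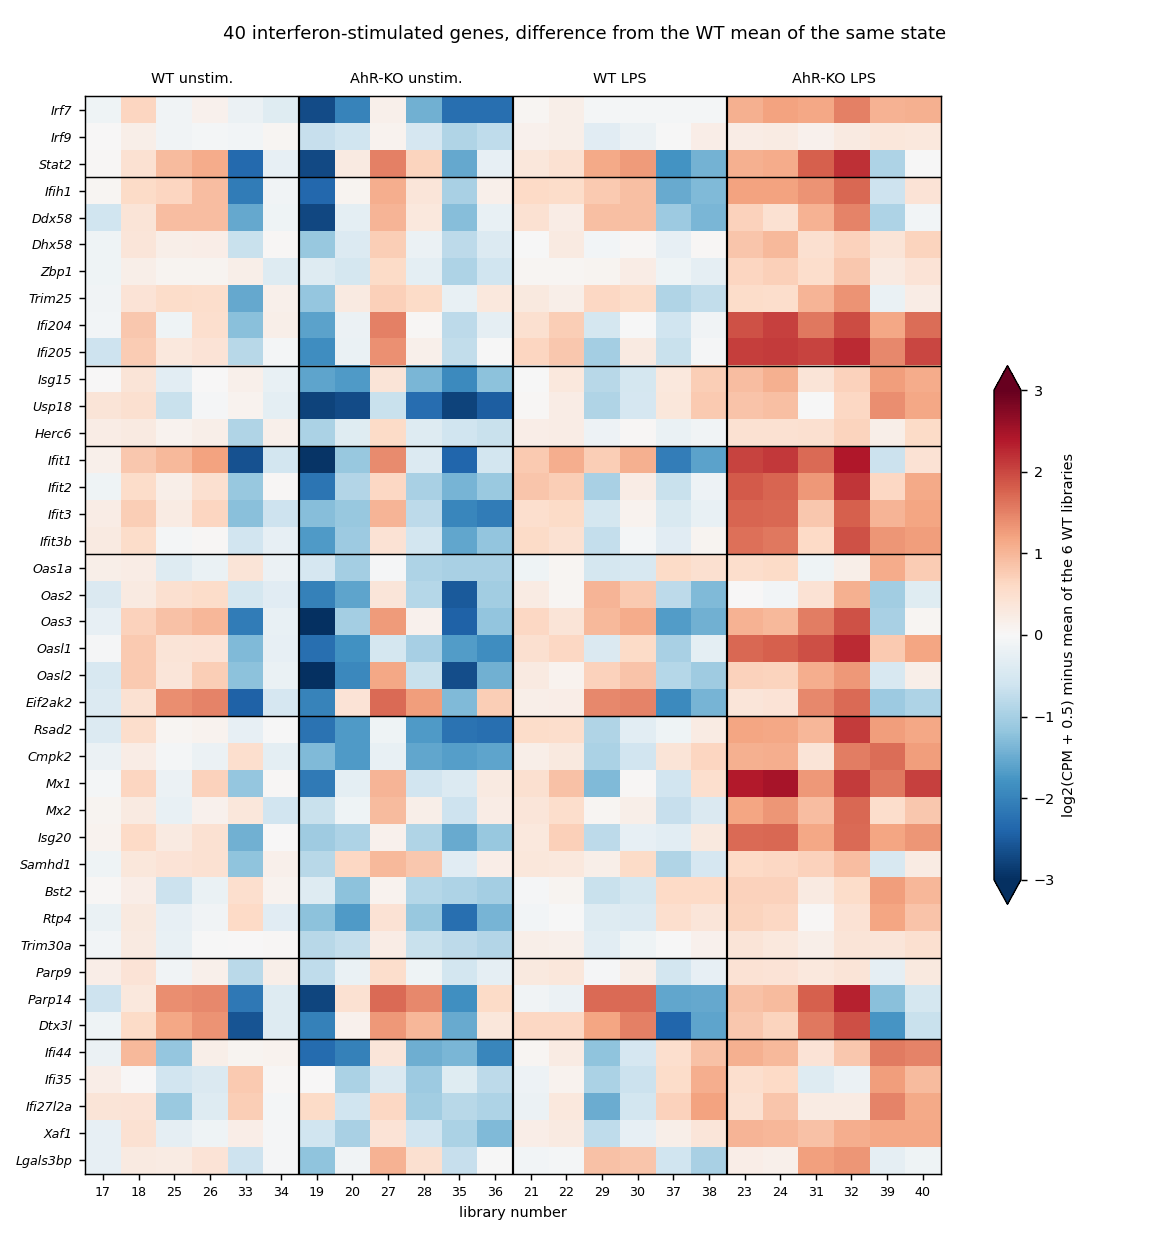
Each row is 1 of the 40 genes and each column 1 of the 24 libraries, with colour for log2(CPM + 0.5) minus the mean of the 6 WT libraries in the same state (blue lower, red higher, scale ending at −3 and 3). Of the unstimulated AhR-deficient libraries 19, 20, 28, 35 and 36 are mostly blue and 27 is mostly red, and the 6 LPS-stimulated AhR-deficient libraries are mostly red.

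Among the transcription factors, Irf7 had one of the widest separations of the groups. Irf7 (ENSMUSG00000025498, mm10 chromosome 7, 141262706 to 141266481) encodes the factor that amplifies interferon production once interferon has been made. It had 25.6, 30.7 and 52.3 CPM (lowest, median and highest of 6 libraries, the order used throughout) in unstimulated WT and 4.71, 7.26 and 36.9 CPM in unstimulated AhR-deficient BMDMs. With LPS it reached 1497, 1509 and 1755 CPM in WT and 3225, 3406 and 4433 CPM in AhR-deficient BMDMs. Unstimulated groups overlapped through replicate 27 alone, whose 36.9 CPM compares with 4.71 to 11.9 CPM in the other 5, and the LPS-stimulated groups did not overlap. LPS raised Irf7 by a log2 fold change of 5.52 ± 0.42 (standard error) in WT (adjusted p = 3.17e-10) and of 8.16 ± 0.47 in AhR-deficient BMDMs (adjusted p = 1.61e-12). Its genotype difference was −1.46 ± 0.35 without stimulation (−2.18 less 27) and 1.18 ± 0.35 after LPS. Irf9 and Stat2, the DNA-binding and the transactivating subunit of the interferon-activated complex, moved less. Irf9 rose with LPS by 1.38 in WT and 2.16 in AhR-deficient BMDMs, with a genotype difference of −0.53 ± 0.14 without stimulation (−0.70 less 27) and 0.24 ± 0.14 after LPS. Stat2 rose by 2.19 (adjusted p = 0.015) and 3.12 (adjusted p = 0.00105), and its 4 groups overlapped widely, with 1.59 to 38.3 CPM across the unstimulated and 16.3 to 265 CPM across the LPS-stimulated libraries.

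The sensors of viral nucleic acid all rose with LPS in both genotypes, 7 of 7, and the median of their genotype differences was −0.18 without stimulation and 0.68 after LPS. Less 27, the unstimulated differences ran from −0.77 in Ddx58 to −0.07 in Trim25, with −0.59 in the middle. Ifi205 (ENSMUSG00000054203, mm10 chromosome 1, 174011998 to 174031810), a member of the PYHIN family of DNA-binding proteins, had 1.203, 2.86 and 4.68 CPM in unstimulated WT and 0.340, 2.32 and 7.29 CPM in unstimulated AhR-deficient BMDMs. The stimulated groups had 166, 371 and 592 CPM in WT and 926, 1400 and 1595 CPM in AhR-deficient BMDMs. The unstimulated groups overlapped fully, and the lowest stimulated AhR-deficient library was above the highest WT library. Its LPS response was the largest of the 40 genes in WT, 7.07 ± 0.59 (adjusted p = 1.39e-09), and was 8.94 ± 0.64 in AhR-deficient BMDMs (adjusted p = 5.31e-11). The genotype difference of Ifi205 was −0.01 ± 0.46 without stimulation (−0.59 less 27) and 1.86 ± 0.46 after LPS, and that of its relative on the same chromosome, Ifi204, was −0.01 ± 0.39 (−0.59 less 27) and 1.67 ± 0.40. Both genes share sequence with Ifi211, at 15.0% of the 100-base windows of Ifi205 and 9.56% of those of Ifi204, and fragments that aligned to more than 1 place were not counted. The RNA helicases of the RIG-I family, Ddx58 (RIG-I), Ifih1 (MDA5) and Dhx58 (LGP2), had genotype differences after LPS of 0.39 ± 0.54, 0.78 ± 0.54 and 0.68 ± 0.23, and only those of Dhx58 among the 3 came from groups that did not overlap. Without stimulation their differences were −0.36 ± 0.54 (−0.77 less 27), −0.18 ± 0.53 (−0.53 less 27) and −0.28 ± 0.23 (−0.60 less 27). Zbp1, a sensor of Z-form nucleic acid, rose from a median of 24.9 to 216 CPM in WT and from 17.2 to 312 CPM in AhR-deficient BMDMs, and its stimulated groups did not overlap. Trim25, a ubiquitin ligase that activates RIG-I, had the smallest LPS response of the 7, 1.40 in WT and 1.90 in AhR-deficient BMDMs.

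In the ISG15 system, 3 of 3 genes rose with LPS in both genotypes, and for Isg15 and Usp18 the fitted genotype difference was larger without stimulation than after LPS. Isg15 (ENSMUSG00000035692, mm10 chromosome 4, 156199424 to 156200818) encodes a ubiquitin-like protein that is joined to other proteins, and its promoter was shown above with 3 overlapping cores. It had 15.1, 19.02 and 24.8 CPM in unstimulated WT and 4.70, 6.46 and 24.8 CPM in unstimulated AhR-deficient BMDMs. LPS-stimulated libraries had 360, 720 and 1077 CPM in WT and 842, 1282 and 1527 CPM in AhR-deficient BMDMs. Without stimulation 5 of the 6 AhR-deficient libraries, at 7.77 CPM or less, were below every WT library and replicate 27 was level with the highest one, and after LPS the groups overlapped. Usp18 (ENSMUSG00000030107, mm10 chromosome 6, 121245906 to 121270917), the protease that removes ISG15 and also restrains the interferon receptor, had 16.5, 27.2 and 37.4 CPM in unstimulated WT and 3.47, 4.03 and 16.6 CPM in unstimulated AhR-deficient BMDMs. With LPS it reached 206, 421 and 669 CPM in WT and 379, 707 and 1011 CPM in AhR-deficient BMDMs, which overlapped. Its genotype difference without stimulation, −2.17 ± 0.38 (−2.78 less 27), was the lowest of the 40 genes after that of Oasl1, and it was 0.78 ± 0.36 after LPS. The genotype differences of Isg15 were −1.04 ± 0.34 (−1.63 less 27) and 0.84 ± 0.33. The LPS responses of Isg15 were 5.16 ± 0.39 in WT (adjusted p = 3.59e-10) and 7.04 ± 0.43 in AhR-deficient BMDMs (adjusted p = 4.07e-12), and those of Usp18 were 3.91 ± 0.41 (adjusted p = 4.64e-08) and 6.86 ± 0.47 (adjusted p = 2.49e-11). Herc6, the mouse ligase for ISG15, rose by 3.58 and 4.41, with genotype differences of −0.37 ± 0.22 (−0.65 less 27) and 0.46 ± 0.22.

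The 4 genes of the IFIT family, whose proteins bind viral RNA that lacks host marks, lie beside each other on chromosome 19 and rose with LPS in both genotypes. Ifit1 (ENSMUSG00000034459, mm10 chromosome 19, 34640871 to 34650009) had 0.363, 7.03 and 11.6 CPM in unstimulated WT and 0.181, 2.48 and 13.5 CPM in unstimulated AhR-deficient BMDMs. The stimulated groups had 40.9, 296 and 373 CPM in WT and 112, 638 and 924 CPM in AhR-deficient BMDMs. The groups of a state overlapped, and in both stimulated groups the 2 libraries of the run of 33 to 40 were the lowest. Ifit1 rose by 5.20 ± 0.93 in WT (adjusted p = 8.47e-05) and by 7.18 ± 1.02 in AhR-deficient BMDMs (adjusted p = 3.09e-06). The latter was 8.23 less 27. Over the family, the genotype differences ran from −1.26 (Ifit3b) to −0.78 (Ifit1) without stimulation, or from −2.34 (Ifit3b) to −1.45 (Ifit2) less 27, and from 1.21 (Ifit1) to 1.40 (Ifit2) after LPS. The unstimulated value of Ifit3b was −2.44 by limma-voom. Ifit3 and Ifit3b, for which the stimulated groups did not overlap, share 31.7% and 27.4% of their 100-base windows with each other, and reads from these stretches cannot be assigned to either of them.

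The OAS family makes or resembles enzymes that make 2′-5′ oligoadenylate, the signal that activates RNase L, and it held the gene with the largest interaction of the 40, also less 27. Oasl1 (ENSMUSG00000041827, mm10 chromosome 5, 114923240 to 114937915), an OAS-like protein known to limit the translation of Irf7 mRNA, had 0.454, 2.22 and 3.64 CPM in unstimulated WT and 0, 0.216 and 1.15 CPM in unstimulated AhR-deficient BMDMs. LPS-stimulated libraries had 89.6, 194 and 272 CPM in WT and 301, 594 and 834 CPM in AhR-deficient BMDMs. Its unstimulated groups overlapped with and without replicate 27, and every stimulated AhR-deficient library was above every WT library. LPS raised Oasl1 by 6.48 ± 0.65 in WT (adjusted p = 2.91e-08) and 10.39 ± 0.77 in AhR-deficient BMDMs (adjusted p = 1.17e-10). The interaction of 3.91 ± 0.77 was the highest of the 40, made up of a genotype difference of −2.34 ± 0.57 without stimulation (−3.03 less 27) and 1.57 ± 0.52 after LPS. Oas1a (ENSMUSG00000052776, mm10 chromosome 5, 120896256 to 120907521), the most abundant of the family per kilobase, had 127, 168 and 219 CPM in unstimulated WT and 81.9, 86.3 and 163 CPM in unstimulated AhR-deficient BMDMs. With LPS it reached 511, 716 and 1097 CPM in WT and 672, 1071 and 1581 CPM in AhR-deficient BMDMs. The unstimulated groups separated once replicate 27 was left out, and the stimulated groups overlapped. Oas1a rose by 2.17 ± 0.24 in WT (adjusted p = 1.49e-07) and 3.38 ± 0.25 in AhR-deficient BMDMs (adjusted p = 1.44e-10), with genotype differences of −0.72 ± 0.23 (−0.90 less 27) and 0.49 ± 0.23. It shares 40.9% of its windows with Oas1g. Oas2 was the 1 gene of the 40 whose fitted level after LPS was not higher in AhR-deficient BMDMs, with a genotype difference of −1.2 ± 0.52 without stimulation (−1.88 less 27) and −0.06 ± 0.51 after LPS. Its rise with LPS in WT (1.49, adjusted p = 0.0274) was not called with total library size (adjusted p = 0.104) or without any one of replicates 17, 29, 30, 33 and 34. Oas3 and Oasl2 rose in both genotypes, with genotype differences of −0.65 ± 0.68 (−1.46 less 27) and −0.85 ± 0.58 (−1.94 less 27) without stimulation and of 0.67 ± 0.68 and 0.52 ± 0.57 after LPS.

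Eif2ak2 (ENSMUSG00000024079, mm10 chromosome 17, 78852564 to 78882573), the gene of PKR, was the only gene of the 40 without an LPS call, although its fitted rise was above that of Samhd1 in both genotypes. It had 1.27, 9.54 and 26.2 CPM in unstimulated WT and 1.88, 13.6 and 30.5 CPM in unstimulated AhR-deficient BMDMs. With LPS it had 5.88, 26.8 and 67.0 CPM in WT and 10.7, 30.97 and 77.6 CPM in AhR-deficient BMDMs. All 4 groups overlapped, and in both stimulated groups the 3 runs of library numbers were separate, with that of 25 to 32 highest and that of 33 to 40 lowest. Its LPS response was 1.37 ± 0.73 in WT (adjusted p = 0.151) and 1.41 ± 0.73 in AhR-deficient BMDMs (adjusted p = 0.126), and both passed with the run as a factor (1.31, adjusted p = 0.0161, and 1.18, adjusted p = 0.0276) and with the slope on gene length as a covariate (1.02, adjusted p = 9.67e-06, and 1.55, adjusted p = 1.44e-08). The interaction of Eif2ak2 was 0.04 ± 1.02, the lowest of the 40, or 0.42 less 27, when that of Samhd1 was lower at 0.30, and its genotype difference without stimulation was 0.14 ± 0.72 (−0.23 less 27).

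Of the other antiviral effectors 9 of 9 rose with LPS in both genotypes. Bst2 (ENSMUSG00000046718, mm10 chromosome 8, 71534255 to 71537456) encodes tetherin, which holds budding virions at the cell surface. It had 91.8, 151 and 205 CPM in unstimulated WT and 60.8, 77.9 and 156 CPM in unstimulated AhR-deficient BMDMs. The stimulated groups had 716, 1152 and 1720 CPM in WT and 1384, 1853 and 2738 CPM in AhR-deficient BMDMs, and the groups of a state overlapped in both states. Bst2 rose by 3.03 ± 0.27 in WT (adjusted p = 5.82e-09) and 4.41 ± 0.29 in AhR-deficient BMDMs (adjusted p = 1.67e-11), with genotype differences of −0.68 ± 0.26 (−0.90 less 27) and 0.70 ± 0.26. Rsad2 and Cmpk2 are neighbours that encode viperin, which makes a chain-terminating nucleotide, and a mitochondrial nucleotide kinase. Rsad2 had 11.4, 15.8 and 22.4 CPM in unstimulated WT, 2.83, 3.67 and 14.1 in unstimulated AhR-deficient, 296, 577 and 809 in LPS-stimulated WT and 1099, 1238 and 2336 CPM in LPS-stimulated AhR-deficient BMDMs. Its stimulated groups did not overlap, and its unstimulated groups overlapped only through replicate 27. The genotype differences were −1.58 ± 0.35 (−2.17 less 27) and 1.27 ± 0.35 for Rsad2 and −1.29 ± 0.29 (−1.64 less 27) and 1.12 ± 0.29 for Cmpk2. Both genes lie on chromosome 12, as Ahr does, at 9.04 and 9.02 Mb from it, and an effect of strain differences near Ahr was not tested.

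The GTPase gene Mx1 had the highest genotype difference of the 40 after LPS, 1.88 ± 0.50, and −0.23 ± 0.49 without stimulation (−0.69 less 27). Mx1 rose from a median of 2.44 to 35.3 CPM in WT and from 1.80 to 124 CPM in AhR-deficient BMDMs, and its stimulated groups did not overlap. In C57BL/6 mice Mx1 is known to carry a deletion and makes no working protein. Its relative Mx2, which the annotation lists as a polymorphic pseudogene, rose by 5.30 in WT and 6.2 in AhR-deficient BMDMs. Isg20, a gene of an RNA exonuclease, had genotype differences of −1.11 ± 0.34 (−1.5 less 27) and 1.40 ± 0.34. Rtp4 had −0.99 ± 0.33 (−1.56 less 27) and 0.64 ± 0.33, and Trim30a, which restrains Toll-like receptor signalling, had −0.56 ± 0.16 (−0.78 less 27) and 0.35 ± 0.16.

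Samhd1 (ENSMUSG00000027639, mm10 chromosome 2, 157097533 to 157135265), which depletes the deoxynucleotides that retroviruses need, had the smallest LPS response of the 40 genes in both genotypes. It had 48.8, 135 and 157 CPM in unstimulated WT and 63.8, 153 and 225 CPM in unstimulated AhR-deficient BMDMs. With LPS it reached 142, 313 and 396 CPM in WT and 190, 403 and 506 CPM in AhR-deficient BMDMs. The 4 groups overlapped, also between stimulated and unstimulated libraries. Samhd1 rose by 1.21 ± 0.32 in WT (adjusted p = 0.0044) and 1.34 ± 0.32 in AhR-deficient BMDMs (adjusted p = 0.00145), calls that were not made with total library size (adjusted p = 0.0687 and 0.0625). Its genotype difference without stimulation, 0.27 ± 0.32 (0.11 less 27), was the highest of the 40 genes.

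Parp9, Dtx3l and Parp14 lie within a short stretch of chromosome 16, and the first pair encode partners of an ADP-ribosylating ubiquitin ligase. Parp9 (ENSMUSG00000022906, mm10 chromosome 16, 35938470 to 35972605) had 33.5, 66.5 and 79.1 CPM in unstimulated WT and 34.9, 50.3 and 86.3 CPM in unstimulated AhR-deficient BMDMs. LPS-stimulated libraries had 120, 185 and 222 CPM in WT and 146, 223 and 236 CPM in AhR-deficient BMDMs. The genotypes overlapped in both states, and the states did not overlap in either genotype. Parp9 rose by 1.54 ± 0.22 in WT (adjusted p = 4.03e-06) and 2.01 ± 0.22 in AhR-deficient BMDMs (adjusted p = 6.73e-08). Over the 3 genes, the genotype differences ran from −0.22 to 0.18 (−0.45 to −0.20 less 27) in the unstimulated and from 0.25 to 0.57 in the stimulated state. The rise of Dtx3l with LPS in WT, 2.03 ± 0.74 (adjusted p = 0.032), was not called by limma-voom (adjusted p = 0.0655), with total library size (adjusted p = 0.0844), in the fit of the 12 WT libraries (adjusted p = 0.0518), without the filter on low counts (adjusted p = 0.0517) or without any one of replicates 17, 18, 29, 30, 33 and 34.

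All of the other 5 genes rose with LPS in both genotypes. Lgals3bp (ENSMUSG00000033880, mm10 chromosome 11, 118392751 to 118402092), a secreted glycoprotein that binds galectin-3, had 230, 379 and 466 CPM in unstimulated WT and 152, 339 and 729 CPM in unstimulated AhR-deficient BMDMs. The stimulated groups had 545, 1019 and 1956 CPM in WT and 884, 1202 and 2664 CPM in AhR-deficient BMDMs, with overlap between genotypes in both states. It rose by 1.72 ± 0.38 in WT (adjusted p = 0.00087) and 2.06 ± 0.39 in AhR-deficient BMDMs (adjusted p = 0.000113), with genotype differences of 0.06 ± 0.37 (−0.24 less 27) and 0.40 ± 0.37. Xaf1, which promotes apoptosis, had the clearest separation of the 5, with 96.4, 186 and 209 CPM in LPS-stimulated WT and 300, 339 and 368 CPM in LPS-stimulated AhR-deficient BMDMs. Its genotype differences were −0.61 ± 0.24 (−0.93 less 27) and 1.01 ± 0.24. Ifi44 had genotype differences of −1.42 ± 0.48 (−2.27 less 27) and 0.95 ± 0.47, Ifi35 of −0.62 ± 0.33 (−0.65 less 27) and 0.40 ± 0.33, and Ifi27l2a of −0.30 ± 0.40 (−0.54 less 27) and 0.57 ± 0.40. Per kilobase of merged exons, the median level in LPS-stimulated AhR-deficient BMDMs was highest for Bst2 (2052 CPM per kilobase), Ifi27l2a (1988) and Isg15 (1824) and lowest for Oas2 (2.53).

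**Figure D4:**
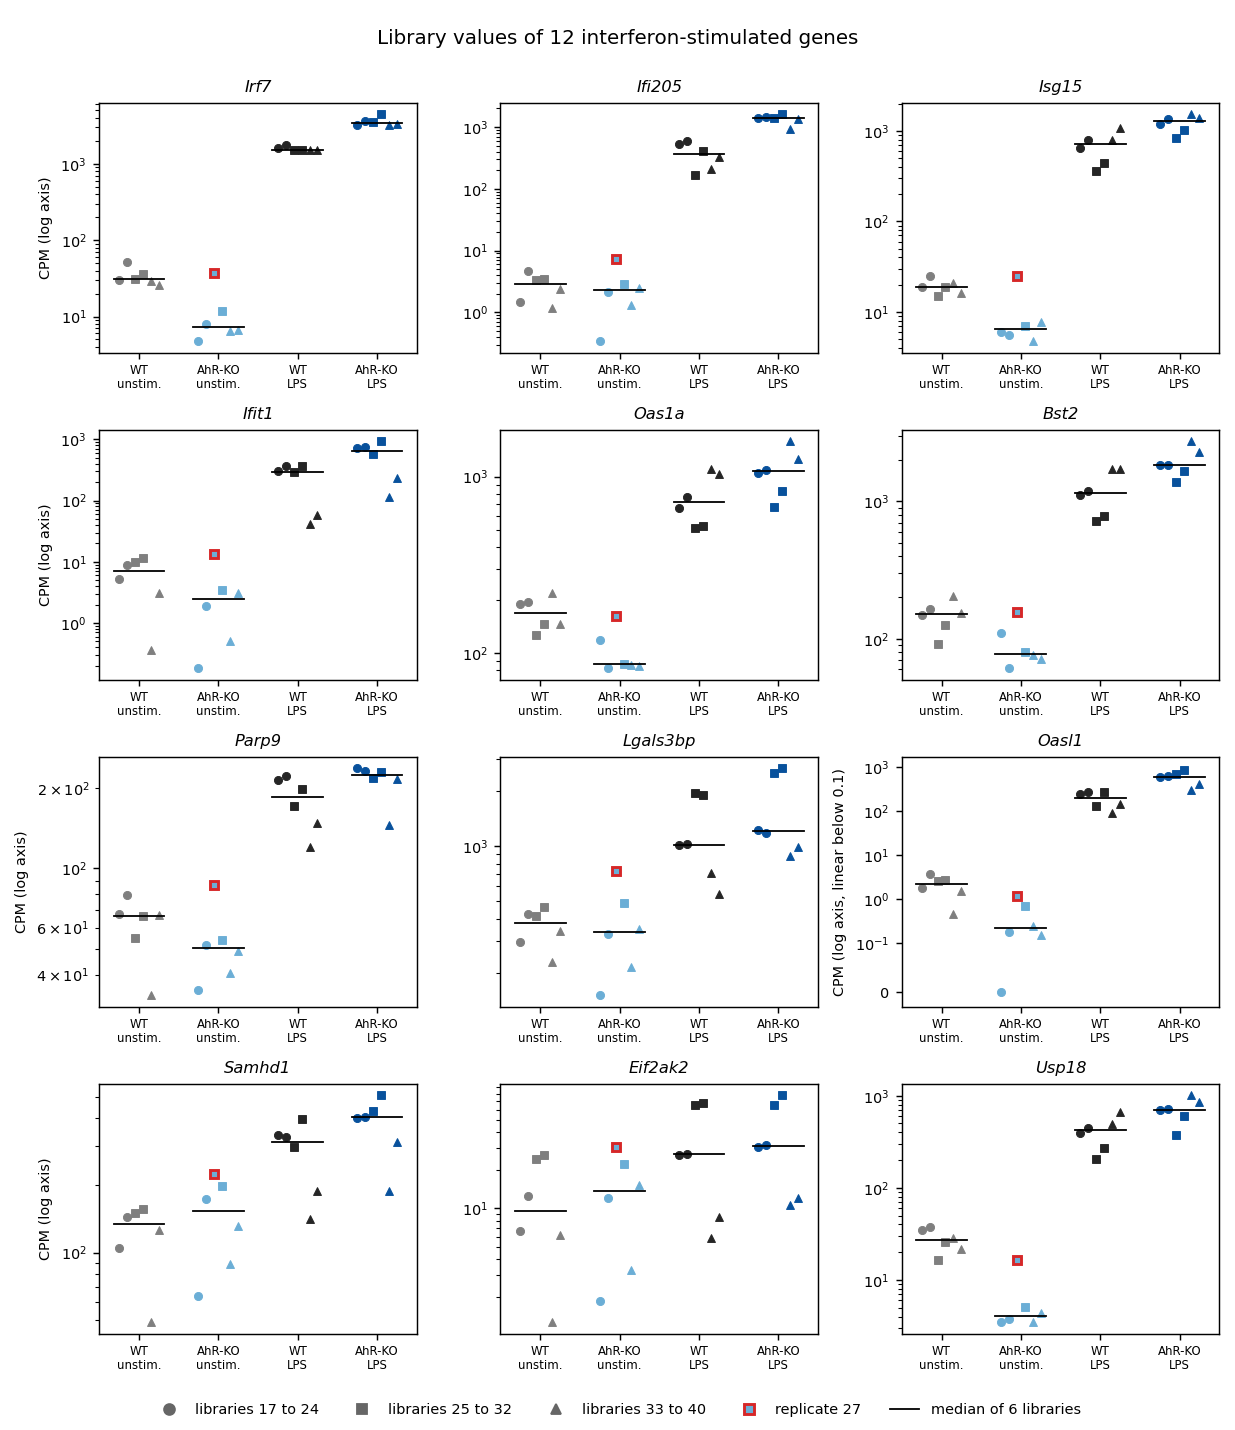
CPM of 12 of the 40 genes in each of the 24 libraries (vertical log axes; the axis of Oasl1 is linear below 0.1 so that its 0 can be shown), with a symbol per run of library numbers, a red outline for replicate 27 and a line for the median of 6 libraries. In Irf7, Ifi205 and Oasl1 all 6 LPS-stimulated AhR-deficient libraries sit above all 6 WT libraries, and in Eif2ak2 the 3 symbols lie apart from each other in both LPS-stimulated groups.

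Within groups, the residuals of a gene over the 24 libraries, which are its differences from the group means of log2(CPM + 0.5), were positively correlated with the mean residual of the other 39 genes for 36 of the 40. The exceptions were Ifi35 (Pearson's r of −0.48), Ifi27l2a (−0.20), Oas1a (−0.12) and Bst2 (−0.10). The standard deviation of the residuals was 0.63 at the median gene, from 0.22 in Irf9 to 1.51 in Parp14, and fell to 0.42 at the median gene once the slope of each library on gene length was taken out. The mean residual of the 40 genes and that slope had a Pearson's r of 0.739 over the 24 libraries, which share their 4 group means, and it is given as a description. Single genes went both ways, with 28 positively and 12 negatively correlated with the slope, from −0.92 in Ifi35 and −0.75 in Ifi27l2a to 0.98 in Eif2ak2. The widest spreads, from 1.32 to 1.51, were those of Stat2, Oas3, Eif2ak2, Ifit1, Dtx3l and Parp14. The 10 genes outside the 40 whose residuals were most like their mean over the 24 libraries were Ifi211, Ifi203, Ifi209, Uba7, Gbp6, Ddx60, H2-T24, Sp100, Gbp9 and Trim30d, with r between 0.916 and 0.973.

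The rest of the pathway was followed in lists drawn up for this purpose with earlier results of these data known. Called genes with the smallest p in a list were named. Their p-values for genotype and the interaction therefore describe genes picked by such values. Of 18 genes for type I interferons, Ifnb1 alone passed the filter. Ifnb1, the gene of interferon-β, had 0, 0.0213 and 0.158 CPM in unstimulated WT and 0, 0 and 0.0662 CPM in unstimulated AhR-deficient BMDMs, and it had no count in replicate 27. After LPS it had 0.0980, 0.877 and 2.497 CPM in WT and 0.728, 3.21 and 6.97 CPM in AhR-deficient BMDMs, which overlapped. It rose by 4.37 ± 0.95 in WT (adjusted p = 0.000691) and 7.26 ± 1.09 in AhR-deficient BMDMs (adjusted p = 6.41e-06). The genotype difference after LPS was 1.80 ± 0.79 (adjusted p = 0.164) and the interaction 2.89 ± 1.37 (adjusted p = 0.355), and neither passed. Genes of interferon-α had 0 counts in all 24 libraries, except Ifna9 with 6 counts in LPS-stimulated AhR-deficient BMDMs and Ifnab with 1 in unstimulated AhR-deficient BMDMs. Ifnk had 14 counts in stimulated WT and 32 in stimulated AhR-deficient BMDMs. A count of 0 in a library allows up to 3 counts there. RNA was taken at a single time, 24 h after LPS.

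Of 4 genes for the receptor and its kinases, the 2 receptor genes, Ifnar1 and Ifnar2, rose with LPS in each genotype. Over all tested genes, 13.2% rose in WT and 15.1% in AhR-deficient BMDMs. The smallest adjusted p between genotypes over the 4 was 0.791, for Ifnar2 after LPS. Ifnar1 rose by 1.71 ± 0.35 in WT (adjusted p = 0.000443) and 1.83 ± 0.36 in AhR-deficient BMDMs (adjusted p = 0.000172), and Ifnar2 by 1.55 ± 0.33 (adjusted p = 0.000536) and 1.94 ± 0.33 (adjusted p = 3.74e-05).

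Of 12 genes from Toll-like receptor 4 to the interferon regulatory factors, 7 rose with LPS in WT (13.2% of all tested genes) and 6 in AhR-deficient BMDMs (15.1%). Cd14, the coreceptor for LPS, rose by 5.32 ± 0.27 (adjusted p = 5.21e-13) and 5.60 ± 0.27 (adjusted p = 1.02e-13), Irf1 by 1.96 and 2.08, Irf5 by 1.22 and 1.66 and Tbk1, the kinase that activates IRF3, by 1.03 and 1.29. Between genotypes, Ticam2 was higher and Irf8 lower in AhR-deficient BMDMs after LPS. Both of these were singled out after their values were seen. Ticam2, the adaptor TRAM that links the receptor to TRIF, had 20.5, 26.6 and 34.99 CPM in LPS-stimulated WT and 40.9, 55.0 and 84.0 CPM in LPS-stimulated AhR-deficient BMDMs, which differed by 1.10 ± 0.17 (adjusted p = 8.8e-05) without overlap. Its difference without stimulation was 0.85 ± 0.17 (adjusted p = 0.00217), under the minimum fold. Irf8, a factor of myeloid and dendritic cell development, had 62.9, 121 and 135 CPM in unstimulated WT, 55.3, 62.2 and 71.5 in unstimulated AhR-deficient, 474, 1098 and 1303 in LPS-stimulated WT and 32.4, 49.2 and 183 CPM in LPS-stimulated AhR-deficient BMDMs. It rose in WT (3.10 ± 0.37, adjusted p = 3.92e-07) and had 0.13 ± 0.34 in AhR-deficient BMDMs (adjusted p = 0.798), and its interaction of −2.97 ± 0.49 (adjusted p = 0.000781) had the opposite sign to that of all 40 genes. Of 8 genes of nucleic acid sensing outside the 40, Tlr3 rose with LPS in both genotypes (1.6 and 2.33) and Mavs fell in AhR-deficient BMDMs (−1.26 ± 0.20, adjusted p = 1.62e-05), against −0.84 ± 0.20 in WT (adjusted p = 0.00168). The smallest adjusted p between genotypes was that of Tmem173, the gene of STING, without stimulation (0.39, adjusted p = 0.0386).

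Among 6 genes that restrain interferon signalling, 5 were tested. Socs1, which inhibits the receptor's kinases, had 18.5, 27.6 and 29.9 CPM in unstimulated WT and 5.19, 8.42 and 13.0 CPM in unstimulated AhR-deficient BMDMs. These groups did not overlap even with replicate 27 and differed by −1.63 ± 0.19 (adjusted p = 3.19e-06). After LPS its medians were 116 CPM in both genotypes (−0.01 ± 0.18, adjusted p = 0.997). Tiparp, a target of AhR whose product acts back on AhR and on interferon production, had 54.6, 77.6 and 93.6 CPM in LPS-stimulated WT and 105, 136 and 214 CPM in LPS-stimulated AhR-deficient BMDMs. Tiparp rose with LPS in AhR-deficient BMDMs by 1.52 ± 0.18 (adjusted p = 1.73e-07) and changed by 0.04 ± 0.17 in WT (adjusted p = 0.888). The interactions of Socs1 (1.63 ± 0.26, adjusted p = 0.000593) and Tiparp (1.48 ± 0.25, adjusted p = 0.000783) passed, and both genes were named for their small p. Socs3 rose by 3.82 ± 0.19 in WT (adjusted p = 3.25e-13) and 4.41 ± 0.20 in AhR-deficient BMDMs (adjusted p = 2.07e-14), and Adar, the RNA editing enzyme, in AhR-deficient BMDMs alone by these thresholds (1.86 ± 0.68, adjusted p = 0.0288, against 1.62 ± 0.67, adjusted p = 0.0634, in WT), a difference of 0.25 ± 0.93 that did not pass (adjusted p = 1). In the type II interferon pathway 3 of 4 genes were tested, where Ifngr2 and Jak2 rose with LPS in both genotypes and Ifngr1 fell in AhR-deficient BMDMs (−1.11 ± 0.13, adjusted p = 2.45e-07). Ifng had 9 counts in LPS-stimulated WT, 4 in LPS-stimulated AhR-deficient and 0 in unstimulated BMDMs.

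A further 55 interferon-stimulated genes outside the 40 were listed, of which 54 were tested. With LPS, 45 rose (13.2% of all tested genes) and 1 fell (11.8%) in WT, and 49 rose in AhR-deficient BMDMs (15.1%). Without stimulation 6 were lower in the AhR-deficient than in the WT group (3.57% of all tested genes), and after LPS 9 were higher (2.17%) and 2 were lower (6.19%). The interaction had an adjusted p of 0.05 or less in 19 (4.30% of all tested genes), each with a positive sign. The medians of the 54 were −0.38 without stimulation, 0.64 after LPS and 1.06 for the interaction. The list was drawn up with results of these data known, so it is not independent of the 40. Its counts, and the values of its named genes, for genotype and the interaction are a description. Ifitm3, a membrane protein that blocks viral entry, had 20.6, 26.6 and 45.0 CPM in unstimulated WT, 1.78, 2.53 and 11.1 in unstimulated AhR-deficient, 646, 825 and 1040 in LPS-stimulated WT and 1146, 1370 and 1642 CPM in LPS-stimulated AhR-deficient BMDMs. Both pairs of groups were separate, also with replicate 27, and the log2 fold changes were −2.87 ± 0.35 without stimulation (adjusted p = 7.06e-06) and 0.68 ± 0.33 after LPS (adjusted p = 0.215). Parp11, Parp12 and Ddx60 rose with LPS by 2.49, 2.12 and 3.23 in WT and by 3.80, 2.93 and 4.62 in AhR-deficient BMDMs, and their interactions were 1.31 ± 0.23, 0.82 ± 0.21 and 1.39 ± 0.36. The 2 listed genes that were lower after LPS were Ifitm1, with 63.0, 103 and 167 CPM in WT and 0.707, 0.976 and 2.53 CPM in AhR-deficient BMDMs (−6.39 ± 0.61, adjusted p = 1.38e-07), and Ifitm2 (−1.26 ± 0.14, adjusted p = 1.33e-06), which were singled out after their values were seen. Ifitm1 was also lower without stimulation (−8.15 ± 0.67, adjusted p = 2.96e-08).

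**Figure D5:**
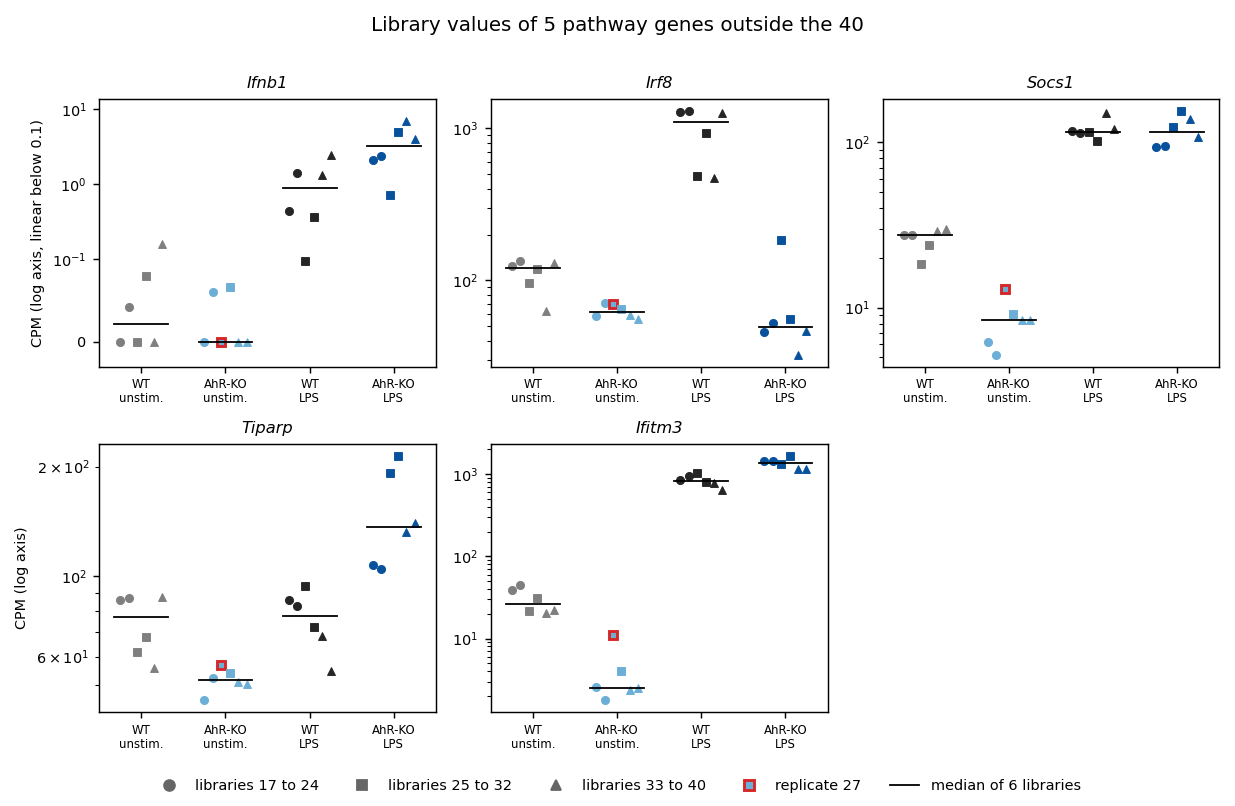
CPM of 5 pathway genes outside the 40 in each of the 24 libraries (vertical log axes; the axis of Ifnb1 is linear below 0.1), with a symbol per run of library numbers, a red outline for replicate 27 and a line for the median of 6 libraries. Irf8 after LPS is at 474 to 1303 CPM in WT and 32.4 to 183 CPM in AhR-deficient BMDMs, Ifitm3 is lower in unstimulated and higher in stimulated AhR-deficient BMDMs, and Ifnb1 is at or near 0 without stimulation.

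Markers of other cells moved with genotype too. The summed level of 8 neutrophil markers was 1677 to 12710 CPM in unstimulated WT and 256 to 805 CPM in unstimulated AhR-deficient BMDMs, and 726 to 8432 CPM and 141 to 1019 CPM after LPS. None was at 0 in a whole group, and of 7 tested 7 were lower in AhR-deficient BMDMs without stimulation and 5 after LPS. For scale here and in the lists below, 3.57% of all tested genes were lower in AhR-deficient BMDMs without stimulation. After LPS 6.19% were lower and 2.17% higher. Dendritic cell markers summed to 38.6 to 125 CPM in WT and 9.28 to 16.3 CPM in AhR-deficient BMDMs without stimulation, and to 567 to 2455 and 101 to 894 CPM after LPS, with 5 of 7 tested markers lower in each state and Clec9a higher without stimulation. Mast cell and basophil markers summed to 5.68 to 19.9 and 1.84 to 4.08 CPM without stimulation and to 9.77 to 34.5 and 3.03 to 8.80 CPM after LPS, with 4 and 5 of 6 lower. Of the plasmacytoid dendritic cell markers, which mark the main producers of interferon-α, Siglech had 204 counts over the 6 unstimulated WT libraries, 1 count in unstimulated AhR-deficient and 0 counts in stimulated BMDMs, and Ly6d and Klk1 were at or below 5 counts in every group. The 8 markers of that cell summed to at most 55.8 CPM in any library, and of 4 tested Spib was lower and Ccr9 higher in AhR-deficient BMDMs after LPS. Markers of B and T cells summed to at most 0.859 CPM in any library. Replicate 27 had the highest sum of its group for plasmacytoid dendritic cell markers (16.5 CPM, with 3.90 CPM in the lowest library) and for dendritic cell markers (16.3 CPM), while its neutrophil markers, at 422 CPM, and its mast cell and basophil markers, at 2.82 CPM, were inside the range of its group. The part of these cells in the levels of the 40 genes was not tested.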

How the data were processed

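RNA of 24 BMDM libraries, 6 in each of 4 groups taken from the sample labels, was prepared with a directional polyA kit and sequenced. The authors demultiplexed the reads with bcl2fastq 2.20.0, used GSNAP for alignment to mm10, and took fragments with 1 unique alignment as counts per Ensembl gene by featureCounts 2.0.1 in reverse-stranded mode, leaving out fragments that overlap several genes. The deposited values are these raw counts. The 92 spike-in rows, with 1 count over all libraries, were left out, and 55154 of the 55421 genes were given a symbol from the GENCODE M21 table of the same build.

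Counts were fitted with edgeR 4.0.16 in R 4.3.3 (filterByExpr, TMM, robust quasi-likelihood test, 1 fit of the 4 group means over all 24 libraries), with Benjamini-Hochberg adjustment over 16593 genes. A call needed an adjusted p of 0.05 or less and, except for the interaction, a log2 fold change of at least 1 in size. The standard error is the size of the log2 fold change over the square root of F. Alternatives used DESeq2 1.42.0, limma-voom (limma 3.58.1), other scalings and filters, the 12 libraries compared alone, a covariate for how steeply CPM rose with gene length in a library (both as log2), a factor for the 3 runs of 8 consecutive libraries, and fits that left out 1 library at a time. An alternative without WT unstimulated replicate 34 and LPS-stimulated replicate 38, which had almost no counts of Ddx3y, was added after seeing the data. The fits were tested on simulated counts. Python 3.11.15 with numpy 2.4.6, pandas 2.3.3, scipy 1.17.1 and matplotlib 3.10.9 was used for summaries and plots.

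The 40 members and all gene lists were chosen with earlier results of these data known. Values were given in full for the member with the highest mean CPM in each role, the 2 with the largest and the 2 with the smallest LPS response in WT, and the 2 with the highest and the 2 with the lowest interaction, among members with a mean of at least 1 CPM. Of each list up to 4 called genes with the smallest p were named, and 1 gene of these lists is not reported here. The study describes the 6 libraries of a group as separate animals of 1 experiment, so the p-values measure the spread between these animals. Total counts ran from 45106052 to 76992663 per library, at which the biological coefficient of variation was 49.1%. Likeness was the Pearson correlation of residuals from the group means of log2(CPM + 0.5), and shared sequence was the share of a gene's 100-base windows in mm10 transcripts that also occur in another gene.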

Additional observations from a re-analysis of the deposited data

Results flagged for a closer look

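Of 160 groups of 6 libraries tested (40 genes in 4 groups) for a highest or lowest library set apart from the rest, 15 were found. Chance alone marks about 1 in 20 of separate groups, but the genes share the same 24 libraries and are not separate trials, so the 15 are not set against a chance count. In each, the gap between that library and the next one, as a share of the whole range of its group on the log2(CPM + 0.5) scale, was above Dixon's 95% critical value for 6 samples.

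Replicate 27 of the unstimulated AhR-deficient BMDMs was the library set apart in 6 of the 15, each time as the highest. It had 14.1 CPM of Rsad2, 24.999 CPM of Cmpk2, 24.8 CPM of Isg15, 16.6 CPM of Usp18, 7.37 CPM of Ifi44 and 195 CPM of Trim30a. Replicate 33 of the unstimulated WT BMDMs was the lowest library for Isg20 (0.953 CPM), Ifih1 (4.52 CPM), Trim25 (23.7 CPM), Herc6 (7.40 CPM) and Samhd1 (48.8 CPM). Among the LPS-stimulated AhR-deficient BMDMs, replicate 32 was the highest for Rsad2 (2336 CPM) and Irf7 (4433 CPM), and replicate 39 was the lowest for Ifi205 (926 CPM) and Parp9 (146 CPM).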

How the results depend on the processing

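No paired analysis was made because the labels tie no stimulated culture to an unstimulated one and the library numbers, 17 to 40, are not shared between groups. Replicates 34 and 38, both with almost no counts of Ddx3y, are each the last of their group, and pairing by such order was not tested. With the run of 8 libraries as a factor, 40 genes rose with LPS in each genotype (13.9% of all tested genes in WT and 15.3% in AhR-deficient BMDMs), 7 were lower without stimulation (4.25%), 12 were higher after LPS (2.86%) and 20 were past the threshold for the interaction (7.24%). Counts of the 40 genes past the thresholds for genotype or the interaction describe genes selected on those values and are no test. With the slope on gene length as a covariate, 9 genes were lower in AhR-deficient BMDMs without stimulation (5 as reported; 5.01% of all tested genes), 16 were higher after LPS (9 as reported; 4.19%) and 35 were past the threshold for the interaction (15 as reported; 16.8%). In the fit of the 12 libraries compared, 3 were lower without stimulation (3.14%). After LPS, 14 were higher by limma-voom (2.76%) and 4 with total library size (1.42%), with which the median LPS response in AhR-deficient BMDMs was 3.74 (4.25 as reported). Total library size also moved the medians of all tested genes, to −0.52 for LPS in AhR-deficient BMDMs and to −0.26 for genotype after LPS, where the median of the 40 genes was 0.48. The cause of these differences was not tested.

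When 1 of the 24 libraries was left out at a time, between 5 and 14 genes were lower without stimulation, between 6 and 12 higher after LPS, and between 10 and 24 past the threshold for the interaction. Here 14, 12 and 24 are the values without replicate 27 (3.66%, 2.16% and 4.05% of all genes tested in that fit). For the other fits of this kind the shares of all tested genes are not given, so the ranges are not set against them. The LPS calls ran from 37 to 39 in WT and were 39 each time in AhR-deficient BMDMs. The medians of the 40 genes ran from −0.78 to −0.49 and from 0.65 to 0.74 for genotype in the unstimulated and the stimulated state, from 3.02 to 3.11 and from 4.10 to 4.66 for LPS in WT and AhR-deficient BMDMs, and from 1.14 to 1.72 for the interaction. Without both libraries that had almost no counts of Ddx3y, the counts were 39 and 39 for LPS, 5 and 7 for genotype and 13 for the interaction. The shares of all tested genes are not given for that fit, so these counts are not set against them. For single genes, 18 LPS calls over all alternatives were lost, in Dtx3l, Oas2 and Samhd1, 4 were gained, in Eif2ak2, and no called direction turned. DESeq2 gave no adjusted p for Irf7. Among genes at a few CPM without stimulation, limma-voom moved the genotype difference of Ifit3b from −1.26 to −2.44, that of Oasl1 from −2.34 to −3.05 and that of Mx2 from 0.20 to −0.55, and their interactions to 3.84, 4.66 and 1.64, while the other alternatives that kept all 24 libraries moved these values by less than the residual standard deviation of the gene.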
